A study of Mus musculus with 14 samples.

Results

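The HOX genes described here are 4 of the Hoxa cluster (Hoxa5, Hoxa7, Hoxa9 and Hoxa10) and 4 of the Hoxb cluster (Hoxb2, Hoxb3, Hoxb4 and Hoxb5), together with Meis1, which codes for a DNA-binding cofactor of HOX proteins. They were chosen by name, 9 of the 48714 gene labels that could be joined across libraries, and each name had a single label with no numbered copy. The PBX genes, which code for the other main class of HOX cofactors, are not among the 9 and are described after them. RNA came from haematopoietic stem cells (HSCs) of C57BL/6 mouse bone marrow, the cells from which the blood lineages arise. Both groups were sorted HSCs of that strain and tissue, 1 with high calcium ([Ca2+]high, here calcium-high) and 1 with low calcium ([Ca2+]low, calcium-low), with 7 libraries numbered 1 to 7 in each and 100 cells per library. No treatment, mutation or transgene is named, and the age of the mice, the dye, the sort gates and the number of animals behind a library are not stated in the labels. The title names dormant and active HSCs, told apart by markers of the resting state, and a role of cytoplasmic calcium in dormancy.

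HOX proteins are homeodomain transcription factors encoded in 4 clusters, and the genes of a cluster lie in a row in the order in which they act along the body axis. In blood formation several Hoxa and Hoxb genes are transcribed in stem and progenitor cells and are switched down as cells mature. The proteins bind DNA with more selectivity when paired with PBX or MEIS proteins, which belong to the TALE class of homeodomain proteins. Meis1 is needed for HSC maintenance, and Hoxa9 with Meis1 is best known for driving acute myeloid leukaemia when both are overexpressed.

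On GRCm38 the Hoxa members lie within a stretch of chromosome 6 on the minus strand. Hoxa5 is at chr6:52201754-52204587, Hoxa7 at chr6:52214491-52221854, Hoxa9 at chr6:52223100-52231089 and Hoxa10 at chr6:52231197-52240854. The Hoxb members lie on the plus strand of chromosome 11, with Hoxb5 at chr11:96303336-96306121, Hoxb4 at chr11:96318267-96321638, Hoxb3 at chr11:96323326-96347930 and Hoxb2 at chr11:96350525-96354012. Meis1 spans 139169 bases of the same chromosome, chr11:18879817-19018985, on the minus strand. All 9 are protein-coding in the GENCODE M21 annotation. Entries for 6 of the 9 were found in RefSeq's promoter table (Hoxa5, Hoxa7, Hoxa9, Hoxa10 with 2 start sites, Hoxb4 and Meis1). The 250 bases before the start site are printed 5′ to 3′ for 4 of them. Hoxa5 and Hoxb4 are the members of each cluster with an entry that were higher in calcium-high libraries in 6 of 7 pairs, and Hoxa9 and Meis1 are the 2 most abundant members. Capitals mark CCAAT on either strand, the sequence bound by the factor NF-Y. The windows are from GRCm38.p6: chr6:52204588-52204837 (minus strand) for Hoxa5, chr6:52227371-52227620 (minus strand) for Hoxa9, chr11:96318017-96318266 (plus strand) for Hoxb4 and chr11:19018970-19019219 (minus strand) for Meis1.
Hoxa5: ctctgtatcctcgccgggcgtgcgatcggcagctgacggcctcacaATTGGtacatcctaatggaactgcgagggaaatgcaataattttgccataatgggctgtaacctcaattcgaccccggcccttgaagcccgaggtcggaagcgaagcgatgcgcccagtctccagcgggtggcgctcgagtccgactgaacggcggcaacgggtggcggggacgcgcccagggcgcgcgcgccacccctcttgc
Hoxa9: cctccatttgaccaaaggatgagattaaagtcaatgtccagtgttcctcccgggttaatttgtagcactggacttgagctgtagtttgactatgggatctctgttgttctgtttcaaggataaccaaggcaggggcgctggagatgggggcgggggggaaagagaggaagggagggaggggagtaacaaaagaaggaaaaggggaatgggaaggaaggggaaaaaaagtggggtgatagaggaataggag
Hoxb4: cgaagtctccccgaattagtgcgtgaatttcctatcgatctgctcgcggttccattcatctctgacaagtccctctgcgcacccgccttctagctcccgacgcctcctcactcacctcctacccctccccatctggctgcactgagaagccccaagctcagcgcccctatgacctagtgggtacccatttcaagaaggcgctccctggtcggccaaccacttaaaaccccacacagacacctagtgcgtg
Meis1: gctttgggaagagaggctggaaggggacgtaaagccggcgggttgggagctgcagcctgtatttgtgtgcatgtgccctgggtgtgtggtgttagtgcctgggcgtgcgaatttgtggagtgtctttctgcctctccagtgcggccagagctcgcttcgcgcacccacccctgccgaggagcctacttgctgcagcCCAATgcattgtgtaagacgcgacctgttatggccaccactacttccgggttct
CCAAT was found 204 bases before the start of Hoxa5, 54 before that of Meis1 and 64 before 1 of the 2 starts of Hoxa10. This is 3 of the 7 windows of these genes, and 33.8% of 32851 promoter windows of the same length held it. The E-box CACGTG (6.02% of windows), the PBX and HOX composite site TGATTNAT (2.82%) and the MEIS half-site TGACAG (15.9%) were searched on both strands and were in none of the 7. TATAAA (12.4% of windows) was in 1, that of Hoxa10. No motif searched contains another.

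The reads in listed genes came to between 3575282 and 7387840 per library for replicates 1 to 3, and to between 8280756 and 10296347 for the deeper replicates 4 to 7. Some libraries stood apart. Calcium-low replicate 3 had 836 RPKM summed over 11 neutrophil and myeloid markers, against 73.1 to 102 elsewhere in its group and 51.7 to 220 among calcium-high libraries. Its 4 cycling markers summed to 184 RPKM, against 6.34 to 21.8 and 4.6 to 16.0. Its 8 erythroid markers summed to 334 RPKM, against 129 to 171 and 114 to 227. Its 5 megakaryocyte markers summed to 32.4 RPKM, against 15.5 to 25.1 and 13.4 to 30.8. The 10 HSC markers were all above 0 in the series, and summed to 190 and 186 RPKM in the calcium-high and calcium-low libraries of replicate 3, the lowest of each group (highest 362 and 294). The 5 T and NK cell markers summed to 4.55 to 18.7 RPKM in calcium-high and 11.7 to 33.0 RPKM in calcium-low libraries, most of it Nkg7, with Cd3e and Trac at 0 in all 14 and Cd3d at 0.232 RPKM or less. Y-linked genes had 1298 to 1638 reads in each library of replicates 1 and 2, and 0 to 4 in each of the remaining 10. What part these differences have in the values below was not tested, so values are also given by library set and without replicate 3. The labels do not say whether libraries came from separate animals, so p-values measure only the spread between these libraries, which may be technical.

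Over all libraries Meis1 had by far the highest mean of the 9, and Hoxa9 the highest of the 8 HOX members. Levels are in RPKM (reads divided by gene length and by library total), so genes can be set side by side per length. Over the 14 libraries the mean was 31.5 ± 3.94 RPKM for Meis1 (SD, n = 14), above that of 98.3% of the 18207 genes above 0. Hoxa9 followed at 5.83 ± 1.09, Hoxa5 at 2.97 ± 0.859, Hoxa10 at 2.75 ± 0.813, Hoxb4 at 1.95 ± 0.524 and Hoxa7 at 1.72 ± 0.530 RPKM. Hoxb5 at 1.02 ± 0.459, Hoxb2 at 0.898 ± 0.308 and Hoxb3 at 0.751 ± 0.280 RPKM were lowest. Neighbours in this order differed by more than 1 SD of their difference within libraries in 3 places, between Meis1 and Hoxa9, Hoxa9 and Hoxa5, and Hoxa7 and Hoxb5. The first of each of these pairs was higher in 14, 14 and 12 of 14 libraries. Hoxa5 and Hoxa10 (Hoxa5 higher in 8 of 14) and Hoxb4 and Hoxa7 (Hoxb4 higher in 7 of 14) could not be ordered beyond their spread. The order also rests on the gene models: the length implied for Hoxb3 was 8699 bases, against 4251 exon bases in GENCODE M21, and for Hoxa9 it was 3229 against 5580.

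Of the members tested, Hoxa5 had the smallest adjusted p by limma on log2(RPKM + 1) over all 14 libraries. It codes for a HOX factor best known for patterning the neck, chest and lung. Hoxa5 ranged from 3.03 to 4.34 RPKM in calcium-high libraries (median 3.66) and from 1.79 to 3.49 RPKM in calcium-low libraries (median 2.29). It was higher in the calcium-high library in 6 of 7 pairs of libraries with the same number, and 9.14% of tested genes were higher in at least that many. The exception was pair 1, at 3.03 against 3.49 RPKM, and calcium-low replicate 1 was the single calcium-low library that overlapped the calcium-high range. The other 6 calcium-low libraries lay at or below 2.56 RPKM. How many tested genes separate in this way but for 1 library was not counted. The group means were 3.63 ± 0.486 and 2.32 ± 0.602 RPKM (SD, n = 7), a ratio of 1.56. In such bulk libraries, fewer cells with a transcript and less transcript per cell cannot be told apart. In the fit over all 9921 tested genes, those averaging at least 1 RPKM, limma put the difference at 0.49 ± 0.12 (SE) on the log2(RPKM + 1) scale. This did not pass (adjusted p = 0.152, and 0.0636 with the replicate number as a block).

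Hoxa10, a neighbour of Hoxa9 that is transcribed in immature myeloid cells, differed more between the groups in replicates 4 to 7 than in replicates 1 to 3. It ranged from 2.04 to 4.37 RPKM in calcium-high (median 3.21) and from 1.91 to 3.25 RPKM in calcium-low libraries (median 2.12), higher in 4 of 7 pairs. In replicates 1 to 3 the ranges were nearly the same, 2.04 to 2.59 against 2.05 to 2.72 RPKM. In replicates 4 to 7 they were 3.21 to 4.37 against 1.91 to 3.25 RPKM, overlapping through pair 5 alone. The limma difference was 0.31 ± 0.14 over all libraries (adjusted p = 0.722). Its limma interaction of group and library set did not pass (adjusted p = 0.125).

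Hoxa9 and Hoxa7 gave no difference that stood out from the spread. Hoxa9, the HOX factor most tied to HSC and leukaemia growth, ranged from 4.23 to 7.31 RPKM in calcium-high (median 5.11) and from 4.83 to 7.36 RPKM in calcium-low libraries (median 6.44). It was lower in the calcium-high library in 6 of 7 pairs, all but pair 2, and 12.4% of tested genes were lower in at least 6 pairs. The means were 5.45 ± 1.2 and 6.21 ± 0.886 RPKM. Its log2 difference was -0.17 (95% interval -0.43 to 0.09, adjusted p = 0.929). Hoxa7 ranged from 0.729 to 2.43 (median 1.76) and from 0.824 to 2.28 RPKM (median 2.05) and was higher in 3 of 7 pairs. Both replicate 3 libraries were its lowest, and its log2 difference was -0.06 (95% interval -0.40 to 0.28, adjusted p = 0.998).

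All 4 Hoxb members had a higher mean in calcium-high libraries, where 40.8% of tested genes did, and 57.1% of genes above 0 and under 1 RPKM, the range of Hoxb2 and Hoxb3. Hoxb5, whose expression has been used to mark long-term HSCs in the mouse, ranged from 0.684 to 1.66 RPKM in calcium-high (median 1.45) and from 0.218 to 1.13 RPKM in calcium-low libraries (median 0.836). It was higher in 6 of 7 pairs, with pair 3 the exception (0.684 against 0.940 RPKM), and 5 of 7 calcium-high libraries lay above the highest calcium-low one. The means were 1.34 ± 0.343 and 0.705 ± 0.320 RPKM, a ratio of 1.90. These rest on few reads, 31 to 108 per calcium-high and 14 to 74 per calcium-low library. The limma difference was 0.47 ± 0.14 (adjusted p = 0.395, and 0.175 with the block). On the log2(RPKM + 1) scale this understates the change of so low a gene, and it was 0.92 with a pseudocount of 0.1 (adjusted p = 0.466).

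Hoxb4, which expands HSCs in culture when overexpressed, ranged from 1.5 to 2.78 RPKM in calcium-high (median 2.54) and from 1.43 to 2.33 RPKM in calcium-low libraries (median 1.55). It was higher in 6 of 7 pairs, all but pair 3, and in 4 calcium-high libraries above the highest calcium-low value. Pair 5 was nearly equal, at 1.59 against 1.55 RPKM. The limma difference was 0.27 ± 0.12 (adjusted p = 0.734).

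Hoxb2 and Hoxb3, patterning genes of the hindbrain that are also transcribed in blood progenitors, had means under 1 RPKM and were not among the genes tested. Hoxb3 ranged from 0.395 to 1.27 RPKM in calcium-high (median 0.936) and from 0.340 to 0.824 RPKM in calcium-low libraries (median 0.562). It was higher in 6 of 7 pairs, as were 18.1% of genes of 0.3 to 1 RPKM in 6 or more, and 5 calcium-high libraries exceeded every calcium-low one. Hoxb2 ranged from 0.365 to 1.45 (median 1.22) and from 0.561 to 0.863 RPKM (median 0.788), higher in 5 of 7 pairs, with pairs 1 and 3 the other way. Fitted without the filter on low values, their differences were 0.25 ± 0.11 (adjusted p = 0.584) and 0.21 ± 0.12 (adjusted p = 0.776). The antisense gene Hoxb3os shares 52.9% of the exon bases of Hoxb3 and 27.3% of those of Hoxb2 in GENCODE M21. The described preparation does not mark strand, so reads of these genes and of Hoxb3os cannot be told apart. The same holds for the 20.4% of Hoxa7 exon bases shared with Hoxaas3.

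Meis1, read at 2090 to 6561 reads per library, overlapped almost fully between the groups. It ranged from 25.0 to 34.8 RPKM in calcium-high (median 30.1) and from 24.3 to 37.2 RPKM in calcium-low libraries (median 32.9). It was higher in the calcium-high library in 2 of 7 pairs, and the means were 30.6 ± 3.98 and 32.4 ± 4.01 RPKM. Its log2 difference was -0.08 with a 95% interval of -0.32 to 0.17 (adjusted p = 0.992), and -0.25 to 0.10 with the replicate block. Differences of the size measured for Hoxa5 or Hoxb5 lie outside both intervals.

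**Figure D1:**
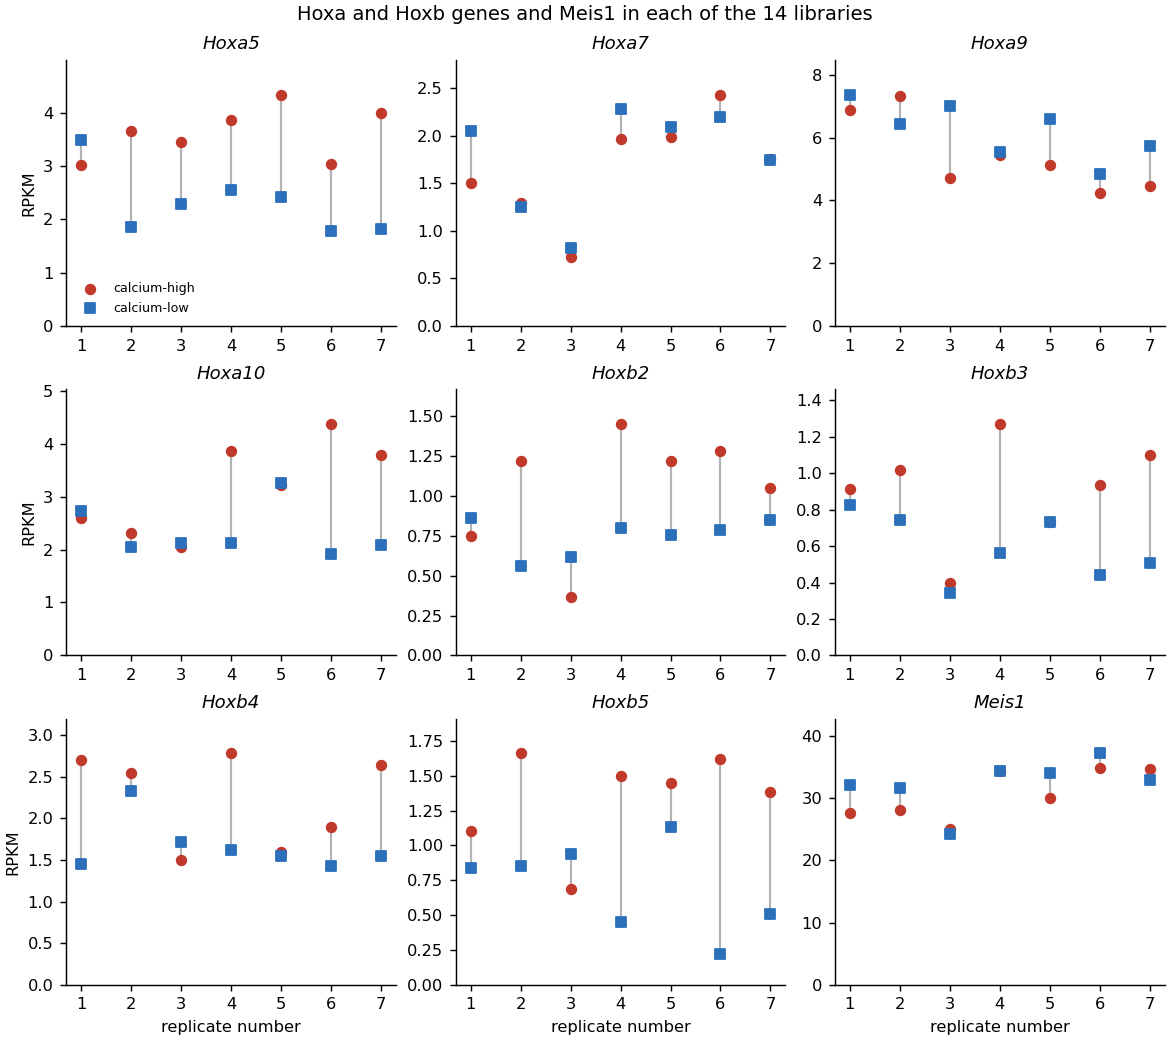
RPKM (vertical axes, from 0) of the 9 genes by replicate number (horizontal axes), with calcium-high libraries as circles, calcium-low libraries as squares and a line joining each pair. Hoxa5, Hoxb3, Hoxb4 and Hoxb5 were higher in calcium-high in 6 of 7 pairs, and Hoxa9 lower in 6 of 7.

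Counted over the members, 7 of the 9 passed the filter of 1 RPKM and 0 of these 7 were called by limma at an adjusted p of 0.05. Of all tested genes 0.0% were called, so the count says little about the members. At an unadjusted p under 0.05, 4 of 7 were higher (Hoxa5, Hoxa10, Hoxb4 and Hoxb5) and 0 lower, where 3.18% of tested genes were higher and 6.74% passed in either direction. The median log2 difference of the 7 was 0.27, against -0.03 over all tested genes. The members were chosen with earlier results of these data known, so these counts are not independent of them. With the replicate block 0 members were called, beside 0.917% of tested genes.

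Members were called in the deeper library set. In replicates 4 to 7 alone, limma called 3 of 7 members higher and 0 lower, where 6.36% of tested genes were called higher. Hoxa5 rose by 0.61 ± 0.12 on the log2(RPKM + 1) scale (adjusted p = 0.0104), Hoxb5 by 0.69 ± 0.15 (adjusted p = 0.0190) and Hoxa10 by 0.54 ± 0.13 (adjusted p = 0.0278). With the replicate block within these 4 pairs the call of Hoxa10 was lost (adjusted p = 0.054). In these 4 pairs Hoxa5 was at 3.05 to 4.34 against 1.79 to 2.56 RPKM and Hoxb5 at 1.38 to 1.62 against 0.218 to 1.13 RPKM. Those 2 of the 7 tested members did not overlap between the groups there, as held for 13.8% of tested genes in the higher direction. Limma-voom on the recovered reads of all 14 libraries called the same 3 members higher, beside 4.48% of tested genes. It weighted the libraries of replicates 1 to 3 by 0.19 to 0.934 and the deeper ones by 0.815 to 2.61.

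In replicates 1 to 3 alone 0 members and 0.0% of tested genes were called by limma, and 0 of 7 members had an unadjusted p under 0.05. The differences of Hoxa5 (0.33 ± 0.19), Hoxb4 (0.19 ± 0.20) and Hoxb5 (0.17 ± 0.20) had the same sign as in replicates 4 to 7, and that of Hoxa10 was 0.01 ± 0.15. The median over all tested genes also differed between the sets, at -0.20 in replicates 1 to 3 and 0.11 in replicates 4 to 7. In replicates 1 to 3 the listed genes held 25.04% to 25.96% of the library total in calcium-high and 27.41% to 32.49% in calcium-low libraries. In replicates 4 to 7 they held 28.37% to 30.71% against 26.5% to 28.34%. RPKM is divided by that total, and the part of these shares in the differences by set was not tested. Tested by limma as an interaction of group and library set, the smallest adjusted p of the 7 members was 0.125, for Hoxa10 (0.53 ± 0.19). The median interaction was 0.14 over the 7 members, below the 0.31 over all tested genes. With the replicate block and without pair 3, Hoxa5 (adjusted p = 0.0490) and Hoxb5 (adjusted p = 0.0351) were called, beside 3.04% of tested genes. Without pair 1, the pair in which Hoxa5 was lower, the blocked fit called Hoxa5 alone (adjusted p = 0.0499), beside 0.0806% of tested genes. Median-of-ratios scaling with the block also called Hoxa5 alone (adjusted p = 0.0223), beside 3.31%.

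**Figure D2:**
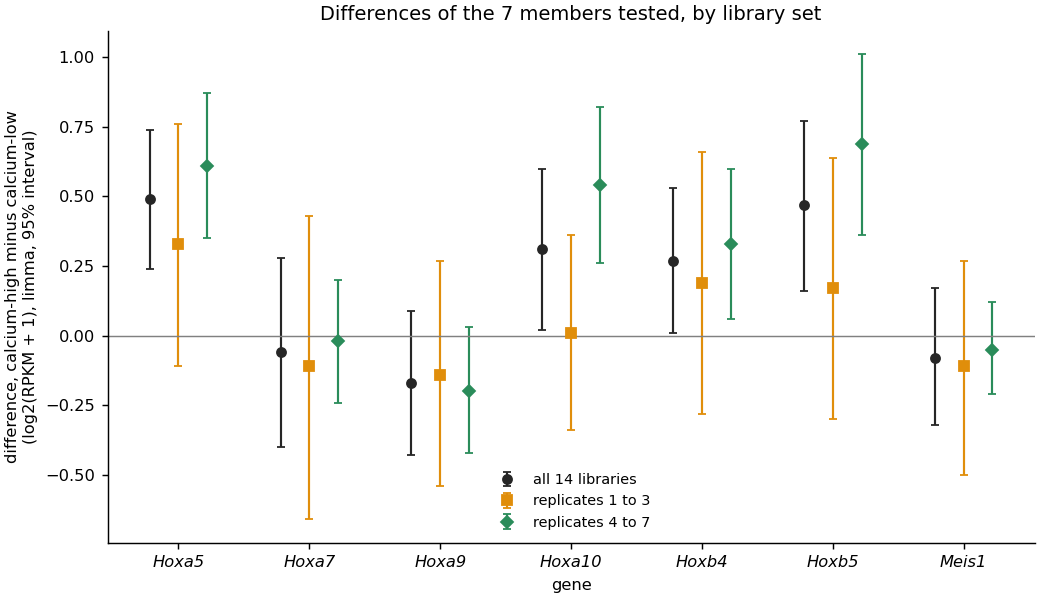
Limma difference between calcium-high and calcium-low libraries on the log2(RPKM + 1) scale (vertical axis; points with 95% intervals) for the 7 members tested, over all 14 libraries (circles), replicates 1 to 3 (squares) and replicates 4 to 7 (diamonds). Hoxa5, Hoxa10 and Hoxb5 lay at 0.54 to 0.69 in replicates 4 to 7, while Hoxa7, Hoxa9 and Meis1 had intervals that include 0 in each set.

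The Hoxb members made up more of the summed level of the 8 HOX members in the calcium-high library in 6 of 7 pairs. The 4 Hoxb members summed to 2.94 to 7.00 RPKM in calcium-high and 2.88 to 4.49 RPKM in calcium-low libraries, higher in 6 of 7 pairs (means 5.54 ± 1.32 and 3.71 ± 0.540 RPKM). The 4 Hoxa members summed to 10.9 to 15.2 and 10.7 to 15.6 RPKM, higher in 5 of 7 pairs (means 13.9 ± 1.38 and 12.6 ± 1.75 RPKM). The Hoxb share of the 8 genes was 28.1 ± 3.65% against 22.8 ± 2.47% (SD, n = 7), and the difference per pair averaged 5.31 ± 4.06 percentage points. In replicates 4 to 7 the share was 25.4% to 31.6% against 21.1% to 23.1%, with no overlap. In replicates 1 to 3 it was 21.2% to 30.7% against 20.3% to 27.9%. Pair 3 went the other way, at 21.2% against 22.8%.

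Per gene rather than by sum, the mean log2(RPKM + 1) of the Hoxa members exceeded that of the Hoxb members by 0.87 ± 0.12 in calcium-high and by 1.02 ± 0.14 in calcium-low libraries. The difference per pair was -0.16 ± 0.15, negative in 6 of 7 pairs, and -0.20 without both libraries of replicate 3. No test was run on this contrast, which is a score over chosen genes. It leaves out Hoxa6 (mean 4.25 RPKM) and Hoxa3 (3.08 RPKM), both with a higher mean than Hoxa5. They were higher in calcium-high libraries in 6 and 7 of 7 pairs, with limma differences of 0.36 and 0.37. The contrast and the Hoxb share were not computed with them. Within the Hoxa cluster the members were not alike, since Hoxa5 and Hoxa10 had higher means in calcium-high and Hoxa7 and Hoxa9 lower ones.

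**Figure D3:**
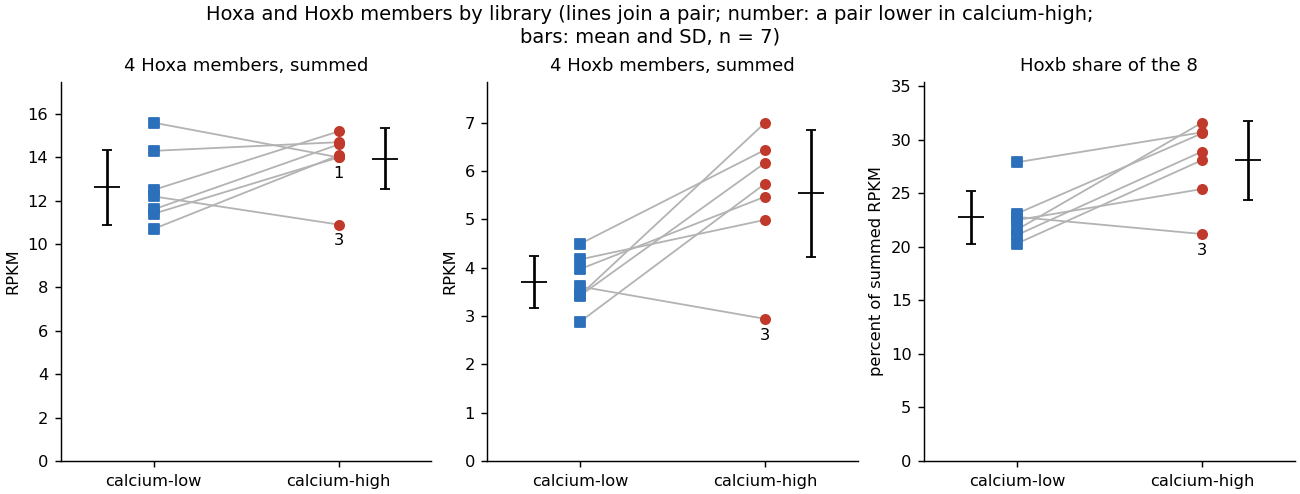
Summed RPKM of the 4 Hoxa members (left), of the 4 Hoxb members (middle) and the Hoxb share of all 8 in percent (right) in each library (vertical axes, from 0), with a line for each pair and the mean and SD of 7 libraries beside the points. Numbers name the pairs that were lower in calcium-high: pairs 1 and 3 for Hoxa, and pair 3 for Hoxb and for the share.

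Across libraries the members did not move as a single group. Correlations of log2(RPKM + 1) over the 14 libraries, with each group's mean subtracted, had a median of 0.54 among the 6 pairs of Hoxb genes (0.19 to 0.65). The median was 0.22 among the 6 pairs of Hoxa genes (-0.34 to 0.66) and 0.32 between the clusters. Meis1 went with Hoxa7 (r = 0.88) and against Hoxa9 (r = -0.53). These points share library depth, with which Hoxa9 was correlated at -0.77, and Hoxa7 and Meis1 at 0.50 each (r with log2 depth), so they describe the libraries and carry no test. The genes most like Meis1 were Orai1 (r = 0.956), Ccnd2 (0.948) and Fhl3 (0.946), those most like Hoxb5 were Sdc2 (0.866), Mtif3 (0.853) and Trappc3 (0.847), and among those most like Hoxa9 were Gm3435 (0.885) and Msantd4 (0.835).

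Of the 31 other Hox genes, 20 were above 0 in any library and 2 reached 1 RPKM, Hoxa3 and Hoxa6. Hoxa3 was at 1.72 to 4.99 RPKM in calcium-high (median 3.42) and 1.2 to 3.23 RPKM in calcium-low libraries (median 2.67), higher in 7 of 7 pairs, as were 2.49% of tested genes. Its limma difference was 0.37 (adjusted p = 0.734, and 0.124 with the block). Hoxa6 was at 1.68 to 6.98 RPKM (median 5.64) against 1.93 to 4.63 RPKM (median 3.85), higher in 6 of 7 pairs, with a difference of 0.36 (adjusted p = 0.873). In the 4 calcium-high libraries of replicates 4 to 7 it was at 5.64 to 6.98 RPKM, above Hoxa9 in each (4.23 to 5.45 RPKM). In the calcium-low libraries of these replicates it was below Hoxa9 in each, at 3.47 to 4.63 against 4.83 to 6.58 RPKM. This order also rests on the gene models, with implied lengths of 699 bases for Hoxa6 and 3229 for Hoxa9. Hoxa3 and Hoxa6 were both called higher by limma in replicates 4 to 7 alone (adjusted p = 0.0267 and 0.0107), beside 6.36% of tested genes. Their median there was 0.50, against 0.11 over all tested genes. In replicates 1 to 3 neither passed, at 0.20 (adjusted p = 0.73) and 0.15 (adjusted p = 0.806). Over all 14 libraries the median of the 2 was 0.36, against -0.03 over all tested genes.

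The Hox genes under 1 RPKM mostly leaned the same way. Of the 18 other Hox genes above 0 and under 1 RPKM, 15 had a higher mean in calcium-high libraries and 3 a lower one (Hoxa11, Hoxa13 and Hoxc13), where 57.1% of all genes in that range had a higher mean. Hoxa2 (0.829 against 0.770 RPKM) and Hoxa4 (0.759 against 0.524 RPKM) were the most abundant. By cluster, members included, the mean was higher for 9 of the 9 Hoxb genes above 0, for 6 of 7 Hoxc genes and for 7 of 11 Hoxa genes. Neighbouring genes of a cluster may share transcripts and exons, so they are not independent counts.

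Several of these low genes were read as single values after their levels were seen. Hoxb6 was at 0.197 to 0.802 RPKM in calcium-high (median 0.660) and 0.128 to 0.555 RPKM in calcium-low libraries (median 0.341), higher in 7 of 7 pairs, as were 5.46% of genes of 0.3 to 1 RPKM. Hoxc6 had 8 to 61 reads in calcium-high and 0 to 20 in calcium-low libraries, 238 against 44 in all, with pair 2 the other way (8 against 13). Hoxb8 had 103 against 16 reads, Hoxc4 46 against 10 and Hoxc5 37 against 3 over the 7 libraries of each group. A mean at least 3 times higher in calcium-high was found for 13.8% of genes of 0.01 to 0.3 RPKM, and 3 times lower for 8.60%. All Hoxd genes but Hoxd12 (1 read in all) were at 0. The 13 listed noncoding labels of the clusters, among them Hotairm1, Hottip, Mir10a and Mir196b, were at 0 in all 14 libraries. Hoxaas3 is 1 of them, although it shares 20.4% of the exon bases of Hoxa7, which was above 0 in every library. These zeros therefore do not show that the genes were not transcribed. Whether reads were counted for these labels at all is not known.

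**Figure D4:**
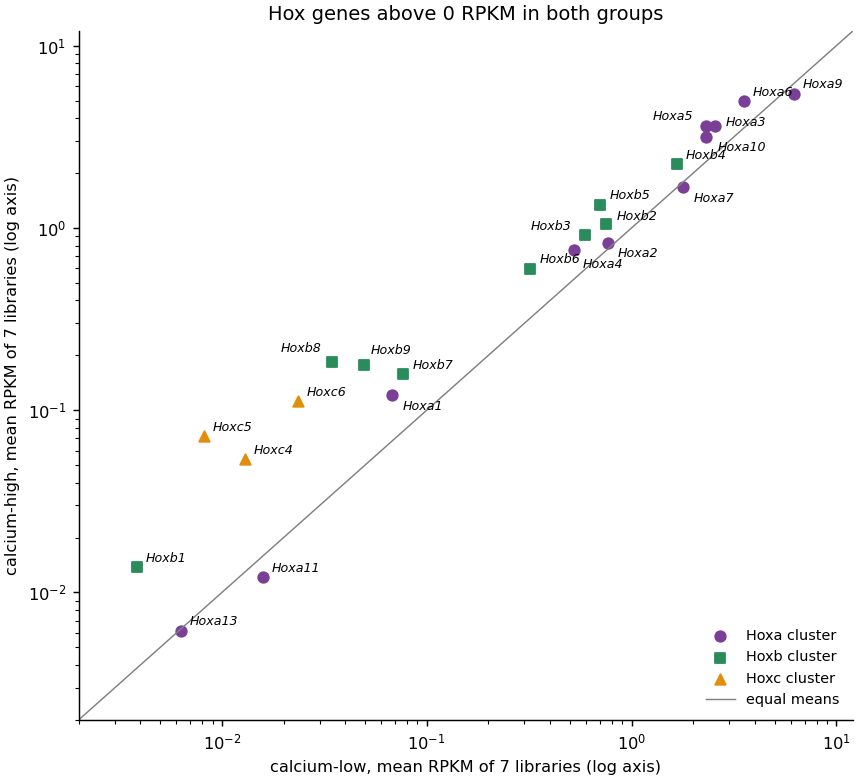
Mean RPKM of Hox genes in calcium-high (vertical axis) against calcium-low libraries (horizontal axis), both on log axes, for genes above 0 in both groups, with a line at equal means. All 9 Hoxb genes (squares) and the 3 Hoxc genes shown (triangles) lie above the line, and of the Hoxa genes (circles) Hoxa7, Hoxa9, Hoxa11 and Hoxa13 lie below it.

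Among the TALE cofactors, Pbx3, named after its values were seen, went opposite ways in the 2 library sets. It was at 1.64 to 2.38 in calcium-high against 2.62 to 2.92 RPKM in calcium-low libraries of replicates 1 to 3, and at 1.85 to 2.24 against 1.14 to 1.34 RPKM in replicates 4 to 7. The groups did not overlap in either set. In replicates 4 to 7, 13.8% of tested genes did not overlap in the higher direction, and the share over both sets was not counted. By limma the difference of Pbx3 was -0.31 in replicates 1 to 3 (adjusted p = 0.421) and 0.45 in replicates 4 to 7 (adjusted p = 0.01). In replicates 4 to 7, 6.36% of tested genes were called higher. The median over all tested genes also moved, from -0.20 in replicates 1 to 3 to 0.11 in replicates 4 to 7. The limma interaction of group and library set was 0.76 for Pbx3, against a median of 0.31 over all tested genes, and did not pass (adjusted p = 0.105). Means were close for 2 other genes of the list, at 3.82 against 3.83 RPKM for Pbxip1, a PBX-interacting protein, and 3.77 against 3.84 RPKM for the TALE gene Pknox1. Pbx2 has 2 labels, of which that with the higher mean was at 3.64 against 3.37 RPKM, and how reads were split between them is not known. That label too went opposite ways, at 2.44 to 2.71 against 2.87 to 3.57 RPKM in replicates 1 to 3. In replicates 4 to 7 it was at 4.29 to 4.73 against 3.06 to 3.91 RPKM, and its limma interaction did not pass (adjusted p = 0.105). Its limma difference was -0.27 in replicates 1 to 3 (adjusted p = 0.421) and 0.31 in replicates 4 to 7 (adjusted p = 0.0492). Of the 9 TALE and PBX-interacting genes listed, 6 were tested and 0 called with or without the block, with a median difference of 0.03 against -0.03 over all tested genes. Meis3, also named after its values were seen, was under 1 RPKM at 0.648 against 0.341 RPKM and higher in 6 of 7 pairs.

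**Figure D5:**
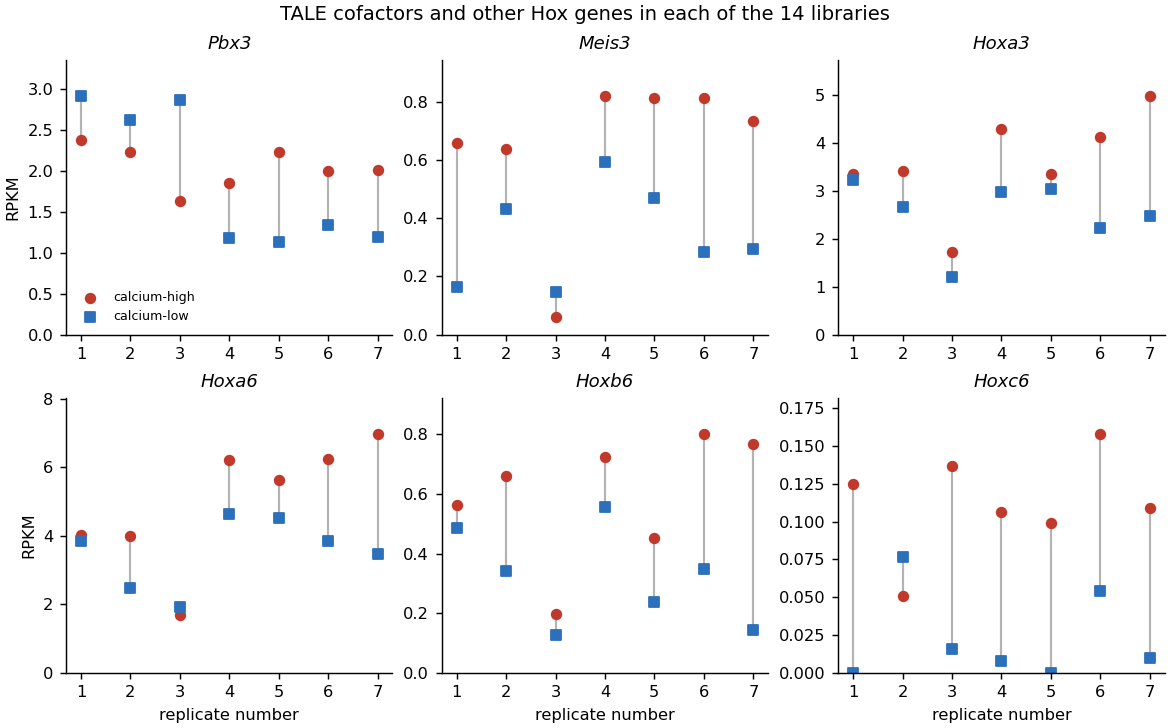
RPKM (vertical axes, from 0) of Pbx3, Meis3, Hoxa3, Hoxa6, Hoxb6 and Hoxc6 by replicate number (horizontal axes), with calcium-high libraries as circles and calcium-low libraries as squares. Pbx3 was lower in calcium-high in replicates 1 to 3 and higher in replicates 4 to 7, and Hoxb6 was higher in 7 of 7 pairs.

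Genes that maintain or read HOX transcription showed no common direction. Of 26 such genes, 23 were tested, 9 with a higher and 14 with a lower mean in calcium-high libraries, and 0 were called with or without the block (median difference -0.05, against -0.03 over all tested genes). Kmt2a, the MLL1 methyltransferase that keeps HOX clusters active, was at 18.0 ± 2.60 against 16.5 ± 1.96 RPKM, and Ctcf, an insulator protein that divides the clusters, at 10.9 ± 1.2 against 13.3 ± 4.0 RPKM. The NF-Y subunit gene Nfya_2, a label with a copy suffix, was at 16.6 ± 3.09 against 19.5 ± 5.82 RPKM, and the histone acetyltransferase gene Kat6a at 10.3 ± 0.628 against 10.4 ± 2.06 RPKM. Mllt3 (AF9, a partner of DOT1L), named after its values were seen, was at 12.2 ± 3.50 against 7.76 ± 2.41 RPKM and higher in 6 of 7 pairs (adjusted p = 0.443, and 0.107 with the block). In replicates 4 to 7 alone limma called 2 of the 23 regulators higher, beside 6.36% of tested genes. These were Mllt3 (adjusted p = 0.00924) and the Men1 label Men1_1 (adjusted p = 0.0323).

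Of 13 genes known as targets of Hoxa9 or Meis1, all were tested, 6 with a higher and 7 with a lower mean in calcium-high libraries. Without the block 0 were called, and with it 2 were called lower, Flt3 and Cdk6, beside 0.433% of tested genes called lower. The list was chosen with earlier results of these data known, so this count is not independent of them. The log2 difference of Flt3, a cytokine receptor of multipotent progenitors, was -1.08 (adjusted p = 0.152, and 0.0364 with the block). That of Cdk6, a kinase of cell cycle entry, was -0.74 (adjusted p = 0.15, and 0.0337 with the block), from 25.3 ± 9.86 against 41.2 ± 4.36 RPKM and lower in 7 of 7 pairs. Lmo2, the most abundant of the list, was at 169 ± 19.9 against 163 ± 16.6 RPKM, and Myb at 49.9 ± 11.8 against 59.5 ± 11.0 RPKM, lower in 7 of 7 pairs, as were 3.02% of tested genes (adjusted p = 0.338 with the block). The median of the 13 was -0.11.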

How the data were processed

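The values were RPKM computed by the authors and deposited as 1 file per library. The file header names no unit, and RPKM was read from the values. The submitters' processing notes list 2 genome builds (GRCm38, mm10) and edgeR, without saying how each was used; aligner, counter and annotation are not given in the sources used here. Of 48737 labels per file, 23 that had become 5-digit numbers were left out. Each gene's values were multiples of 1 read's worth, from which reads were recovered: all 9921 genes tested resolved to within 0.02 reads, against 0 of 500 jittered genes.

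Genes averaging at least 1 RPKM were fitted on log2(RPKM + 1) with limma 3.58.1 in R 4.3.3, using its trend option, calcium-high minus calcium-low. Adjusted p-values are Benjamini-Hochberg over all 9921 genes, with a threshold of 0.05. The script was tested on simulated data. Tables and figures used Python 3.11.15, numpy 2.4.6, pandas 2.3.3, scipy 1.17.1 and matplotlib 3.10.9. The 9 genes and all lists were chosen with earlier results of these data known. Named from the lists were genes called with or without the block, otherwise the 4 with the highest mean; for likeness, the 3 genes with the highest r with Hoxa9, Hoxb5 and Meis1. Other names were chosen after their values were seen. Some genes that this rule names are not reported here.

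Same-numbered libraries deviated together from their group means (r = 0.384 to 0.715 in all 7 pairs), so the replicate number was also fitted as a block. For 5 of the 7 calcium-high libraries, however, the calcium-low library that correlated best had another number. The labels do not say what a number shares. Replicates 1 to 3 and 4 to 7 were also taken as separate library sets, from the listing order of the samples and from depth; no label states a separate preparation. Alternatives were median-of-ratios scaling, a pseudocount of 0.1, no filter, limma-voom with library weights on the recovered reads, each library set, and leaving out each library or pair. Chosen after the data were seen were leaving out both libraries of replicate 3, the block within replicates 4 to 7, and the interaction of group and library set. For a gene of 1 kilobase at 0, counting error alone (3 reads) allows 0.0808 to 0.21 RPKM, by library.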

Additional observations from a re-analysis of the deposited data

Results flagged for a closer look

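Among 20 groups of 7 libraries examined for a single value far from the rest, 2 were picked out, and chance picks out about 1 in 20. Hoxb4 in calcium-low replicate 2 was at 2.33 RPKM, above the 1.43 to 1.71 RPKM of the other 6 calcium-low libraries. The gap was 0.688 of the group's range, past the critical value of 0.568 (Dixon, 95%). Meis1 in calcium-low replicate 3 was at 24.3 RPKM, below the 31.7 to 37.2 RPKM of the other 6, a gap of 0.572 of the range. That library also had the highest sums of neutrophil and myeloid, erythroid, megakaryocyte and cycling markers. The part of those transcripts in the Meis1 value was not tested.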

How the results depend on the processing

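Of 233 alternative values of the members' log2 differences, 232 kept their direction. This count says little, since many of the values could not change. The block and the filter leave these differences as they are, and fits without 1 library share all the others. Hoxa7 reversed to 0.04 without calcium-high replicate 3, and at no setting was Hoxa7 called. Depth limits Hoxb2 and Hoxb5 most, at 14 to 108 reads per library, and a pseudocount of 1 shrinks their differences. The libraries could not be tied to animals.

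Members called were 0 by limma without the block and 0 with it, 3 by limma-voom, 3 in replicates 4 to 7 alone (2 with the block, which lost Hoxa10), and 1 with median-of-ratios scaling and the block. Leaving out 1 pair with the block gave 0 to 2 members, and leaving out 1 library without it 0 of 7. Over all genes limma called 0, and 91 with the replicate block (92 with a pseudocount of 0.1), 700 by limma-voom, 808 in replicates 4 to 7 (656 with the block), 4 with median-of-ratios scaling (328 with the block), 1 with no filter and 119 without both libraries of replicate 3. Leaving out 1 library gave 0 to 101 and leaving out 1 pair with the block 0 to 302 (8 without pair 1, 12 without pair 5). Without calcium-high replicate 3 the count was 101, and without pair 3 it was 302 with the block. With median-of-ratios scaling and the block, 1 of the other Hox genes (Hoxa3), 1 of the TALE cofactors and 1 regulator (Mllt3) were called higher. That setting called 2 targets lower (Flt3 and Cdk6), the same 2 targets as with the block alone. The Hoxa minus Hoxb difference per pair, -0.16, was -0.36 with a pseudocount of 0.1 and -0.40 as the log2 ratio of summed RPKM, and -0.20 to -0.13 without 1 library. In replicates 1 to 3 alone the adjusted p of every member was 0.434 or more.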
